A study of Mus musculus with 6 samples.

Results

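The GADD45 family holds 3 genes, Gadd45a, Gadd45b and Gadd45g, and was described here with Gadd45gip1, whose product binds all members of the family. Members were taken by annotation, as the probe sets that carry exactly 1 of these 4 gene symbols. Each gene had 1 such probe set, which gives 4 of the 19937 genes tested. Total RNA of C57BL/6J granulocytes was hybridised to 6 arrays of the Affymetrix Mouse Gene 1.0 ST type, 3 labelled caffeine-plus and 3 labelled caffeine-minus. Per the labels' protocols, all cells first stood for 4 hours in 15 mM caffeine and were washed 2 times. The caffeine-plus cells then received 2 µg/ml actinomycin D, which blocks transcription, together with caffeine, and the caffeine-minus cells received actinomycin D alone, for 4 hours in both cases. Both groups thus carry the first caffeine exposure and the transcription block, although the label of the caffeine-minus samples says that they had no caffeine. The series asks which transcripts accumulate when nonsense-mediated decay (NMD), which clears mRNAs with premature stop codons, is blocked. Caffeine inhibits SMG1, the kinase of that pathway, but also ATM, ATR and the phosphodiesterases that degrade cAMP, and NMD activity itself was not measured.

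GADD45 proteins are small acidic proteins without enzyme activity of their own, induced by genotoxic and other stresses, cytokines and differentiation signals. They act by binding partners. They activate the kinase MEKK4 (Map3k4) at the head of the p38 and JNK stress cascades, they inhibit the CDK1-cyclin B complex and so help to hold cells in G2, and they bind the replication clamp PCNA. Gadd45a is a textbook target of p53, and its mRNA is both short-lived and a known target of NMD. Gadd45b was first found as MyD118, a gene of the primary response to myeloid differentiation, and Gadd45g as CR6, a gene induced by cytokines. Gadd45gip1 (CRIF1) is not related to the family by sequence, and its main known role is as a protein of the large subunit of the mitochondrial ribosome.

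The promoters of the 3 GADD45 genes are shown because CCAAT and octamer elements are the known p53-independent control elements of the Gadd45a promoter. Both groups were under the transcription block in the 4 hours in which they differed. Promoter activity was not measured, and its bearing on the array differences was not tested. Sequences are from RefSeq, build GRCm38.p6, 5′ to 3′ along the gene, from 250 bases before to 50 bases after the annotated start, and 3 of the 4 members had an entry. They are Gadd45a (chr6:67037358-67037657, minus strand), Gadd45b (chr10:80929841-80930140, plus strand) and Gadd45g (chr13:51846425-51846724, plus strand). Capitals mark matches to CCAAT, the box bound by NF-Y, and to the octamer ATTTGCAT, bound by OCT-1, on either strand.
Gadd45a: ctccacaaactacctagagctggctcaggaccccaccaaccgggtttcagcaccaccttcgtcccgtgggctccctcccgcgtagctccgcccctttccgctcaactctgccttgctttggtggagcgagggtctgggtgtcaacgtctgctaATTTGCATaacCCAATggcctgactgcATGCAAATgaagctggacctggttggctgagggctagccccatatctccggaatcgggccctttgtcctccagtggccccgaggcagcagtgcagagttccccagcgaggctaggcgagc
Gadd45b: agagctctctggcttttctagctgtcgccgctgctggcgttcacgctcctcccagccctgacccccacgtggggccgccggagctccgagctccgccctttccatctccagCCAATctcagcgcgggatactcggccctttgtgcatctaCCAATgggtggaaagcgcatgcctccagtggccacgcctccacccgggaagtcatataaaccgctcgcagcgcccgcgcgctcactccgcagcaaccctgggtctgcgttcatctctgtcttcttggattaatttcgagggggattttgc
Gadd45g: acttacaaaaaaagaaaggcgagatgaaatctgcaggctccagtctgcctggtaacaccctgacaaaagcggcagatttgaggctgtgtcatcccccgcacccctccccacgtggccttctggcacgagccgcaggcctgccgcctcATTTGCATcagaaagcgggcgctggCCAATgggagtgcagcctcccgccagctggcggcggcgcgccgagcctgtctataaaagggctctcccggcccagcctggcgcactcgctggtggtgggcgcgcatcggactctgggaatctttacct

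Every one of these windows held a CCAAT box, which was at position -86 in Gadd45a, at -139 and -100 in Gadd45b and at -78 in Gadd45g, counted to the first base from the start. Of all 32851 windows of 300 bases in the table, 37.4% held the box, so it is a common element. The octamer was rarer, with 1.74% of windows holding it on either strand. Gadd45a had 2 octamers, at -97 on the plus strand and at -70 on the minus strand, on either side of its CCAAT box. Gadd45g had 1 octamer at -103, and the Gadd45b window had no match to these letters. The searched TATAAA was found in Gadd45b at -46 and in Gadd45g at -27 (13.6% of windows), and GGGCGG in Gadd45a at -163 and in Gadd45b at -158 (35.7% of windows). TGATGCAA, a C/EBP-ATF composite, was found in Gadd45g at -101 on the minus strand, overlapping the octamer (0.895% of windows). The CRE TGACGTCA (1.79% of windows), the AP-1 site TGAGTCA (5.2%) and the EGR site GCGTGGGCG (0.612%) had no match in any of the 3 windows. All motifs were searched on both strands, and a match is a description of the letters only.

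**Figure D1:**
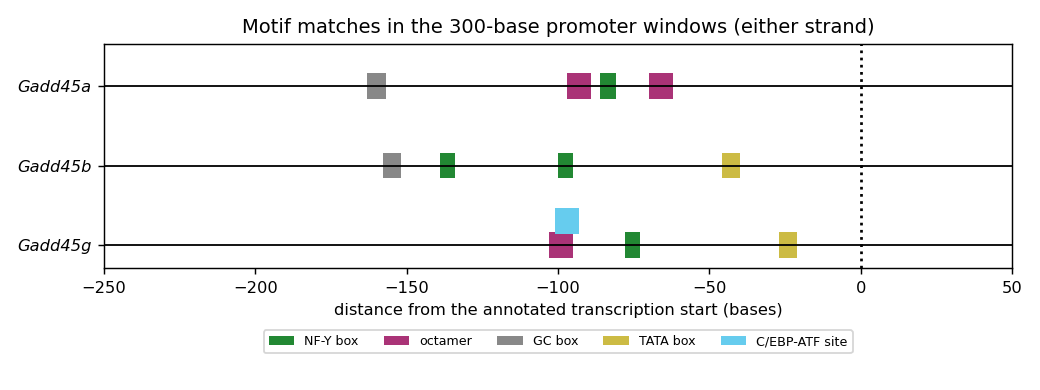
Matches to the searched motifs along the promoter windows of Gadd45a, Gadd45b and Gadd45g, plotted as distance in bases from the annotated start (dotted line), with each box as wide as the motif. All 3 windows hold an NF-Y box, and octamers are drawn in Gadd45a (2) and Gadd45g (1).

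On the arrays, all 3 GADD45 genes were higher in the caffeine-plus cells and Gadd45gip1 did not pass the test. Gadd45a was 3.87-fold higher, Gadd45g 3.82-fold and Gadd45b 2.27-fold. Here a rise or fall means a higher or lower value in the caffeine-plus than in the caffeine-minus arrays, not a change over time. No array was taken before the actinomycin D step, so a gain of RNA and a smaller loss of it cannot be told apart. Each log2 difference is the caffeine-plus mean less the caffeine-minus mean, given ± its standard error (n = 3 arrays per group), from limma fitted over all 19937 genes with p-values adjusted by Benjamini-Hochberg and called under 0.05. Over all genes, 16.2% were higher, 21.7% lower and 37.9% changed in either direction, and 2.63% were higher by at least 2-fold. Calls were more frequent among the 9968 genes brighter than the median gene, of which 29.5% were higher and 33% lower, and most genes of the pathway lists are among these. The labels do not say whether replicates were separate mice or cultures, so the spread behind the p-values is that between these arrays and may be technical. Values of different probe sets were not compared as levels, because probe sets differ in brightness.

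Gadd45a, the family member induced by p53 and by amino acid and other stress, had log2 values of 9.67, 9.69 and 9.62 in the caffeine-plus arrays and of 7.75, 7.51 and 7.86 in the caffeine-minus arrays. The caffeine-plus arrays were all high and nearly equal, and the lowest of them lay 1.76 above the highest caffeine-minus array. The group means were 9.66 ± 0.04 and 7.71 ± 0.18 (SD, n = 3). The log2 difference was 1.95 ± 0.09 (95% interval 1.76 to 2.14, limma adjusted p = 2.2e-10). Only 14 of all tested genes had a larger rise. In the reference annotation its span overlaps that of E230016M11Rik, a separate RNA gene. Whether that RNA reaches this probe set was not tested, so part of the signal may come from it.

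Gadd45b, the myeloid differentiation member, whose protein also binds the JNK kinase MKK7, had log2 values of 9.14, 8.93 and 8.67 in the caffeine-plus arrays against 7.71, 7.83 and 7.66 in the caffeine-minus arrays. The groups did not overlap, with a gap of 0.84, and the caffeine-plus arrays were the more spread. The means were 8.91 ± 0.24 and 7.73 ± 0.09 (SD, n = 3), and the log2 difference was 1.18 ± 0.11 (95% interval 0.96 to 1.41, limma adjusted p = 1.8e-07). A larger rise was measured in 291 genes.

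Gadd45g, the cytokine response member, had log2 values of 7.81, 7.66 and 7.33 in the caffeine-plus arrays against 5.59, 6.07 and 5.34 in the caffeine-minus arrays. All caffeine-plus arrays lay above all caffeine-minus arrays, with a gap of 1.26. The means were 7.60 ± 0.25 and 5.67 ± 0.37 (SD, n = 3). The log2 difference was 1.93 ± 0.16 (95% interval 1.59 to 2.28, limma adjusted p = 9.5e-08), and 17 genes had a larger rise. Its probe set was the dimmest of the 4, with a mean over all arrays below that of the median gene. Differences of dim probe sets can be compressed, so this fold may understate the change, but this was not tested.

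Gadd45gip1, the mitoribosomal protein gene, had log2 values of 7.53, 7.64 and 7.58 in the caffeine-plus arrays and 7.81, 7.56 and 7.75 in the caffeine-minus arrays. The groups overlapped. The means were 7.58 ± 0.06 and 7.71 ± 0.13 (SD, n = 3), and the log2 difference of -0.13 ± 0.09 did not pass (limma adjusted p = 0.34). The 95% interval of its fold, 0.8 to 1.05, lies below the intervals of the 3 GADD45 genes. In 19.5% of all genes every caffeine-plus array lay above every caffeine-minus array, as it did in the 3 GADD45 genes.

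**Figure D2:**
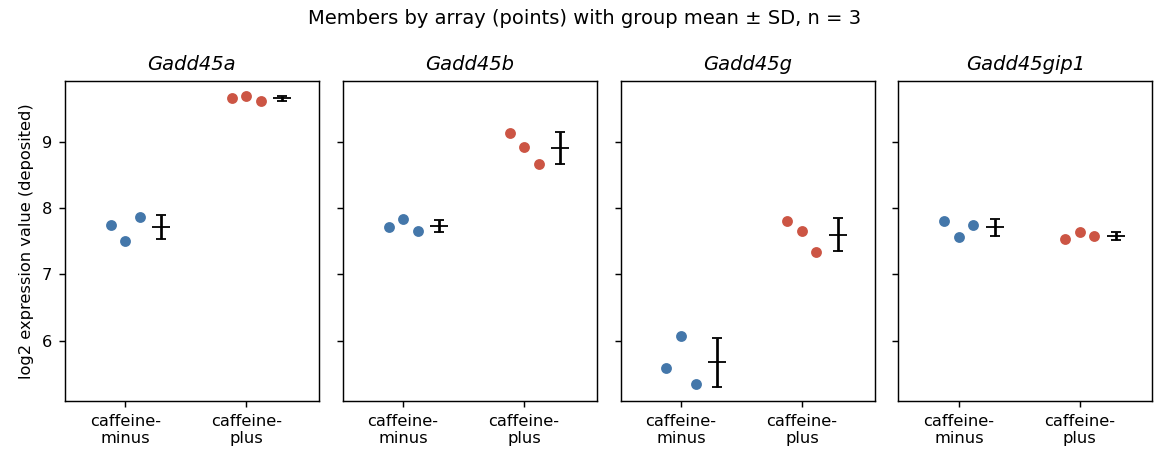
Deposited log2 values of the 4 members in each array (points, 3 per group) with the group mean ± SD (black). The caffeine-plus points of Gadd45a, Gadd45b and Gadd45g lie above all their caffeine-minus points by 1.76, 0.84 and 1.26, and those of Gadd45gip1 overlap.

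**Figure D3:**
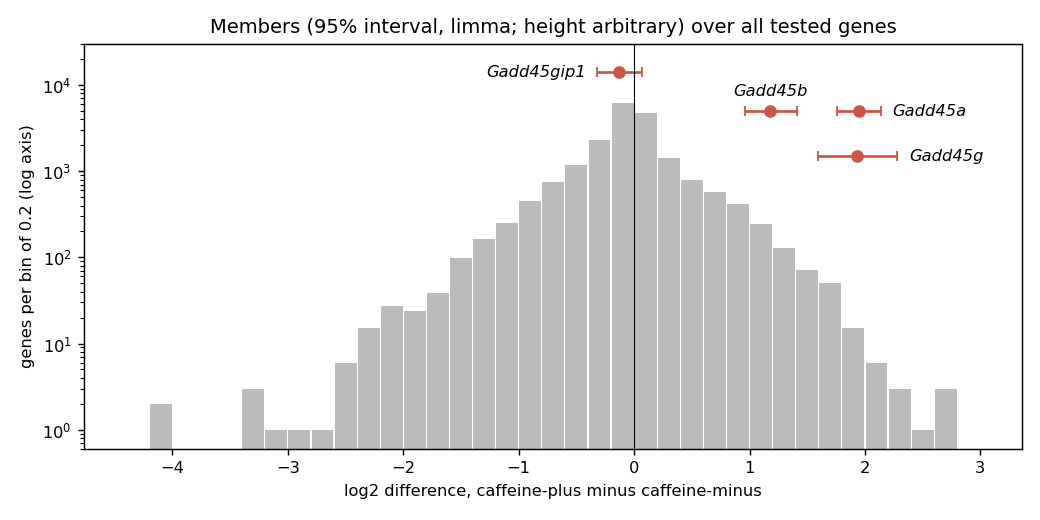
Log2 differences of the 4 members with 95% intervals (points, placed at arbitrary heights) over the histogram of all 19937 genes (bins of 0.2, log axis of gene counts). Gadd45a (1.95) and Gadd45g (1.93) lie far in the right tail, Gadd45b (1.18) inside it and Gadd45gip1 (-0.13) near the centre.

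The sizes of the responses were compared by subtracting 1 member from another within each array, which cancels any scaling of whole arrays, for all 6 pairs. The rise of Gadd45a exceeded that of Gadd45b by 0.77 ± 0.20 on the log2 scale (SE, n = 3 arrays per group), or 1.70-fold, and that of Gadd45g exceeded that of Gadd45b by 1.68-fold (difference -0.75 ± 0.17 for Gadd45b minus Gadd45g). In both pairs the groups did not overlap, but 3 arrays against 3 cannot give an exact permutation p below 0.1, and both gave 0.1 (two-sided, 0.12 after Benjamini-Hochberg adjustment over the 6 pairs). Gadd45a and Gadd45g differed in their rise by 0.02 ± 0.34 (exact permutation p = 1), with an error wide enough to hide a sizeable difference. The dim signal of Gadd45g in the caffeine-minus arrays may compress its rise, and this limit holds for each of its pairs. Against Gadd45gip1 the difference was 2.08 ± 0.06 for Gadd45a, 2.06 ± 0.32 for Gadd45g and 1.31 ± 0.20 for Gadd45b, each with no overlap and an exact permutation p of 0.1, again the smallest possible.

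Within the groups, Gadd45b and Gadd45g ranked the arrays alike. Both were highest in caffeine-plus array 1 and lowest in caffeine-plus array 3, and both were highest in caffeine-minus array 2 and lowest in caffeine-minus array 3. Gadd45a ordered the caffeine-minus arrays the other way, with array 3 highest and array 2 lowest. With 3 arrays in a group these orders are a description only.

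**Figure D4:**
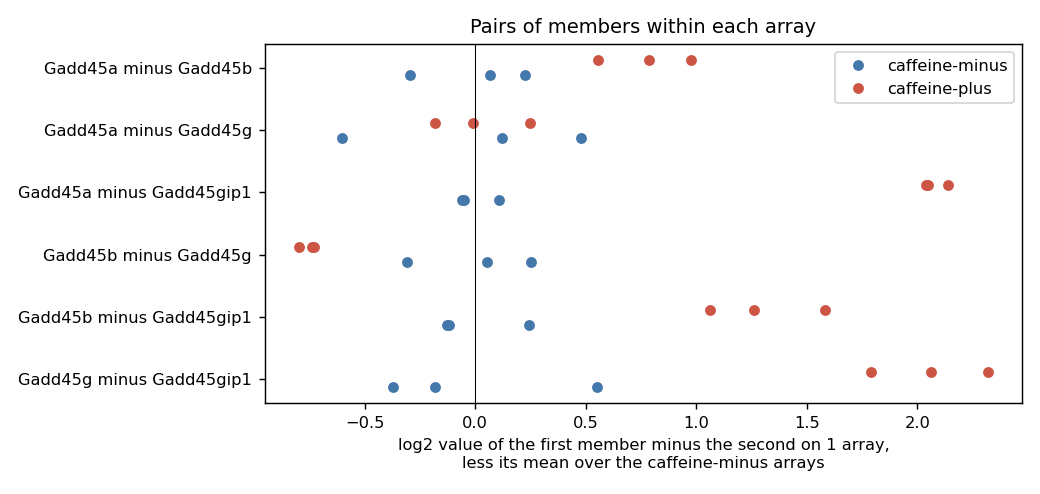
For each pair of members, the first member's log2 value minus the second's on 1 array, less the mean of that value over the caffeine-minus arrays, so that a shift of the caffeine-plus points (red) from the caffeine-minus points (blue) shows an unequal response. The pair of Gadd45a and Gadd45g overlaps and the other 5 pairs do not.

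The genes whose profile over the 6 arrays was closest to each risen member were found by the root-mean-square distance of their centred log2 values. These are likenesses over 6 arrays that share the same group difference. For Gadd45a they were Bard1, the partner of BRCA1 (distance 0.11, 3.93-fold higher by the brightest of its 3 probe sets), the snoRNA host gene Snhg5 (0.131, 3.84-fold higher) and the tRNA modification gene Tyw5 (0.139, 3.41-fold higher). The dimmer Bard1 probe sets were 2.17-fold and 1.56-fold higher, and the mean of the 3 gave a log2 difference of 1.24 in place of 1.97, so its likeness rests on 1 probe set. For Gadd45b they were Emsy (0.073), the mitochondrial carrier gene Slc25a14 (0.079) and the corepressor gene Rcor1 (0.09), which were 2.29-fold, 2.33-fold and 2.39-fold higher. For Gadd45g they were the small GTPase gene Rab12 (0.127), the Mediator subunit gene Med6 (0.139) and Kin (0.157), which were 3.73-fold, 3.62-fold and 3.72-fold higher.

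Genes of the known binding partners of GADD45 proteins were mostly higher too. Of 7 measured, 5 rose and none fell by limma (also none at an unadjusted p under 0.05), with a median log2 difference of 0.81 against -0.037 over all genes. All 7 were brighter than the median gene, where 29.5% of genes were higher, against 16.2% over all genes. Cdk1, the G2 kinase that GADD45 proteins inhibit, was 3.05-fold higher, with log2 values of 9.23, 9.31 and 9.19 against 7.63, 7.70 and 7.57. Map3k4, the kinase that they activate, was 2.58-fold higher, with 8.27, 8.12 and 7.95 against 6.70, 6.62 and 6.91. In both genes every caffeine-plus array lay above every caffeine-minus array, as in 19.5% of all genes. The chromatin adaptor gene Ing1 was 2.30-fold, the p38 alpha gene Mapk14 1.75-fold and Ercc5, the gene of the repair nuclease XPG, 1.53-fold higher. Pcna (log2 difference 0.03 ± 0.05) and the nucleophosmin gene Npm1 (0.02 ± 0.05) did not pass. Cdkn1a, Ccnb1, Map2k7 and Tdg were not analysed here.

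The downstream p38 and JNK cascade, which shares Map3k4 and Mapk14 with the partners, had 12 of 22 measured genes higher and none lower by limma (1 lower at an unadjusted p under 0.05), with a median of 0.33. The share higher was 16.2% over all genes and 29.5% over the genes brighter than the median gene, to which 17 of the 22 belong. Besides Map3k4, the apoptosis signal kinase gene Map3k5 was 2.27-fold, the p38-activated kinase gene Mapkapk5 2.33-fold and the JNK1 gene Mapk8 1.81-fold higher. The G2 to M list, which shares Cdk1 with the partners, had 7 of 11 higher and 1 lower, with a median of 0.47. All 11 were brighter than the median gene, where 29.5% of genes were higher and 33% lower. Over all genes these shares were 16.2% and 21.7%. The mitotic kinase gene Aurka was 1.80-fold, the phosphatase gene Cdc25a 1.74-fold and the checkpoint kinase gene Chek2 1.76-fold higher. The single fall was Ccnb2, the cyclin B2 gene, at 1.27-fold lower, named after its value was seen. Of 10 genes of active DNA demethylation, a process that GADD45 proteins are reported to assist, 4 rose and 3 fell, with a median of 0.05. All 10 were brighter than the median gene, where 33% of genes were lower, against 21.7% over all genes. The 4 that rose were Ing1, Ercc5, the dioxygenase gene Tet2 (1.91-fold) and Ercc4 (1.55-fold). The 3 that fell, named after their values were seen, were the endonuclease gene Apex1 (1.32-fold lower) and the dioxygenase genes Tet3 (1.48-fold) and Tet1 (1.43-fold). A dimmer Tet3 probe set gave a difference of 0.25 ± 0.10 and did not pass in a fit of every probe set (limma adjusted p = 0.1).

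Among factors known to act on GADD45 gene transcription, 10 of 15 measured genes were higher and 1 lower, with a median of 0.66. Of the 15, 13 were brighter than the median gene, where 29.5% of genes were higher, against 16.2% over all genes. Whether these factors acted on the GADD45 genes under the transcription block was not tested. The zinc finger gene Egr1 was 3.00-fold higher, the NF-Y subunit gene Nfyb 2.47-fold, the stress factor gene Atf4 2.28-fold and Smad4 of the TGF-beta pathway 1.92-fold. The other NF-Y subunit genes, Nfya and Nfyc, were named after their values were seen and were 1.85-fold and 1.58-fold higher. The fall was Rela, the NF-kappaB p65 gene, at 1.24-fold lower, also named after its value was seen. Trp53, Nfkb1 and Pou2f1, the OCT-1 gene, were not analysed here.

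The other p53 target genes went in both directions. Of 23 measured, 6 were higher and 10 lower, or 7 and 11 at an unadjusted p under 0.05, with a median of -0.15. Of the 23, 18 were brighter than the median gene, where 29.5% of genes were higher and 33% lower. Over all genes these shares were 16.2% and 21.7%. Cdkn1a, Bax and Gdf15 were not analysed here. Ei24 was 2.34-fold, the damage recognition gene Ddb2 2.15-fold and Trp53inp1 1.77-fold lower, while the polo-like kinase gene Plk3 was 2.16-fold higher. Of 4 other genes named for growth arrest and DNA damage or its transcripts, 2 rose and 1 fell, with a median of 0.49. Ddit3, the gene of CHOP (GADD153), was 2.51-fold and Ppp1r15a, the gene of GADD34, 2.02-fold higher. Ddit4l was 1.64-fold lower, and the mTOR inhibitor gene Ddit4 differed by -0.03 ± 0.10 and did not pass.

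Regulators of Gadd45a mRNA itself were read from a further pair of lists. Of 7 NMD core genes 6 were higher and none lower by limma (also none at an unadjusted p under 0.05), with a median of 0.78. All 7 were brighter than the median gene, where 29.5% of genes were higher, against 16.2% over all genes. Smg1 was 2.35-fold, Upf2 2.03-fold, Smg5 2.02-fold, Smg9 1.72-fold, Smg6 1.51-fold and Upf1 1.20-fold higher, and Smg8 differed by 0.16 ± 0.09 and did not pass. The Upf1 call (limma adjusted p = 0.038) was lost when either caffeine-plus array 1 (0.093) or 2 (0.22), or caffeine-minus array 2 (0.088) or 3 (0.066), was left out, and when every probe set was tested (0.076). Without caffeine-plus array 3 Smg8 passed (limma adjusted p = 0.049). Of 5 genes for proteins that bind Gadd45a mRNA, 2 rose and none fell by limma (1 lower at an unadjusted p under 0.05), with a median of 0.09. Hnrnpd, the gene of AUF1, was 1.37-fold and Tial1, the gene of TIAR, 1.27-fold higher. Zfp36 (-0.17 ± 0.07), the HuR gene Elavl1 (0.09 ± 0.06) and the nucleolin gene Ncl (-0.05 ± 0.06) did not pass. Zfp36 passed as lower in 7 of 16 other settings, with a log2 difference of -0.26 after quantile normalization (limma adjusted p = 0.0014). The others were both filters on dim genes (0.036 and 0.045), array weights (0.045), the replicate number as a block (0.045), and leaving out caffeine-plus array 2 (0.043) or caffeine-minus array 3 (0.022). Ncl passed as lower without caffeine-minus array 3 (0.013).

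For Gadd45gip1, the large subunit of the mitochondrial ribosome gave the setting. Of its 50 measured genes 26 fell and 5 rose, with a median of -0.23. The share lower was 21.7% over all genes and 33% over the genes brighter than the median gene, to which 49 of the 50 belong. The share higher was 16.2% over all genes and 29.5% over these brighter genes. Mrpl41 was 2.29-fold, Mrpl16 2.12-fold and Mrpl24 1.92-fold lower. A dimmer Mrpl41 probe set gave a smaller fall, with a log2 difference of -0.55 ± 0.08 in a fit of every probe set. Mrps30 stood at the other end, at 2.96-fold higher, and the other 4 rises, named after their values were seen, were Mrpl9 (1.71-fold), Mrpl1 (1.64-fold), Mrpl44 (1.35-fold) and Mrpl13 (1.33-fold). The other 19 did not pass, and neither did Gadd45gip1, which was not counted in the list. With arrays centred on their medians 9 genes of the list rose. Of 4 measured partners of the GADD45GIP1 protein, Stat3, also in the list of transcriptional regulators, rose (1.40-fold) and none fell by limma (also none at an unadjusted p under 0.05), with a median of -0.01. Of the 4, 3 were brighter than the median gene. The inner membrane insertase gene Oxa1l (-0.06 ± 0.07), the NRF2 gene Nfe2l2 (0.04 ± 0.06) and Elf3 (-0.12 ± 0.10) did not pass.

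GADD45 proteins share the fold of the ribosomal proteins of the L7Ae family. Of 6 measured genes of that fold 2 rose and 3 fell, with a median of -0.15. All 6 were brighter than the median gene, where 29.5% of genes were higher and 33% lower. Over all genes these shares were 16.2% and 21.7%. The snoRNP gene Nhp2 was 1.78-fold lower and Secisbp2, which serves selenoprotein synthesis, 1.31-fold higher. Rpl7a (1.21-fold lower), Rps12 (1.12-fold lower) and Snu13 (1.12-fold higher) passed, and Rpl30 differed by -0.15 ± 0.07 and did not. These ribosomal and Snu13 genes have many near-identical copies in the genome and up to 7 probe sets, so their values are uncertain. The Snu13 call was lost without caffeine-plus array 1, 2 or 3 or caffeine-minus array 2 (limma adjusted p = 0.07 to 0.13), with every probe set tested (0.082), with eBayes without trend (0.16) and with the mean of its 4 probe sets (log2 difference 0.05, limma adjusted p = 0.71). The Rpl7a call was lost without caffeine-plus array 2 (limma adjusted p = 0.055) or 3 (0.05) or caffeine-minus array 1 (0.082), with centred arrays (0.076), with every probe set tested (0.068), with eBayes without trend (0.053) and with the mean of its probe sets (log2 difference -0.09, limma adjusted p = 0.53). The Rps12 call was lost with centred arrays (limma adjusted p = 0.16) and with eBayes without trend (0.15), and its difference ran from -0.36 with the mean of its probe sets to -0.09 after quantile normalization. Rpl30 passed as lower after quantile normalization (log2 difference -0.25, limma adjusted p = 0.0026), with array weights (0.043) and without caffeine-minus array 3 (0.036).

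**Figure D5:**
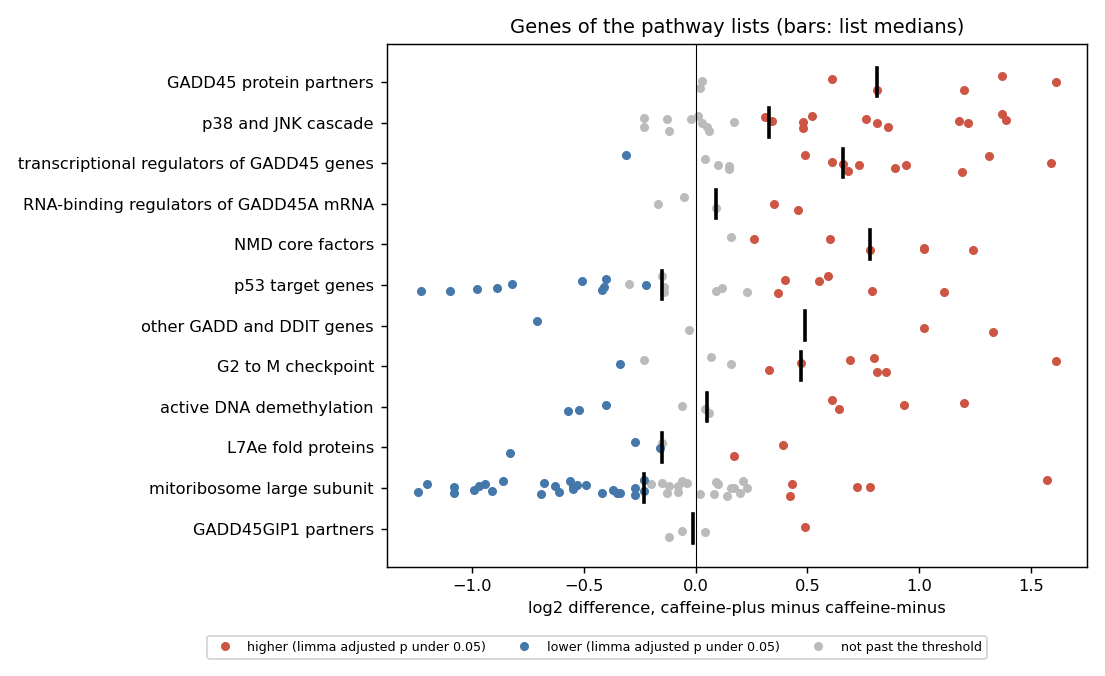
Log2 differences of the genes of the 12 pathway lists (points, coloured by the limma call, with vertical scatter for legibility) and list medians (bars). The partners of GADD45 proteins (median 0.81) and the NMD core factors (0.78) lie to the right, and the mitoribosome large subunit (-0.23) to the left.

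All arrays were checked against cell type markers. All 16 granulocyte markers were measured, 15 of them brighter than the median gene, and all 16 were lower in the caffeine-plus cells, with a median of -0.59. The share lower was 21.7% over all genes and 33% over the genes brighter than the median gene. The mean log2 value of the 16 markers was 9.44 to 9.50 in the caffeine-plus arrays and 10.01 to 10.16 in the caffeine-minus arrays. Of 7 monocyte and macrophage markers 6 were lower and 1 higher (mean 8.37 in each caffeine-plus array and 9.02 to 9.19 in the caffeine-minus arrays). Of 7 T and NK cell markers 1 was lower (5.71 to 5.87 and 5.76 to 5.82), of 5 B cell markers 2 were lower (5.92 to 6.13 and 6.35 to 6.56) and of 4 megakaryocyte markers 1 was lower (6.48 to 6.60 and 6.86 to 6.93). Of 5 erythroid markers 1 was lower and 1 higher (7.05 to 7.11 and 7.09 to 7.20). In bulk RNA, fewer cells of a type and less RNA per cell cannot be told apart. The part of these shifts in the GADD45 differences was not tested. Arrays of 1 group correlated at r of 0.986 or more across probe sets and arrays of different groups at 0.965 or less, and array medians ran from 6.49 to 6.60.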

How the data were processed

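The deposited table gives 34760 probe sets by 6 arrays, made from 300 ng of total RNA per the labels' protocols. No header states the unit. The deposited values run from 1.90 to 13.98 with like medians, and were taken as log2 values normalized by the authors. How probe sets were summarized, corrected and normalized, like the build, is a step not given in the sources used here. The values are relative and hide a change in total mRNA per cell. The number of arrays limits the precision, and no low value was read as absence.

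Gene names came from the platform annotation, in which 21640 have 1 symbol, 1321 several and 11799 are not listed, and 21553 were matched to current symbols in the GRCm38.p6 gene table. A gene was represented by its probe set with the highest mean over the 6 arrays. The comparison used lmFit and eBayes with trend of limma 3.58.1 (R 4.3.3), two-sided, over 19937 genes with no filter on dim probe sets. The script was tested on simulated data. Pairs of members were compared by exact permutation over arrays.

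The members and the 12 pathway lists were chosen with earlier results of these data known. The genes named are the members, the 3 genes likest to each risen member, the 4 with the smallest p of each list, and all of a list with 8 or fewer measured. Others are marked as named after their values were seen. Both groups carry replicate numbers 1 to 3. The labels do not say that these numbers pair arrays, so they were not taken to do so. Deviations of same-numbered arrays correlated at -0.028, 0.19 and 0.293. The highest correlations with another number were 0.125, 0.101 and -0.068, so these values do not settle the pairing. The settings varied were a replicate block, 2 other scalings, 2 filters on dim genes, 2 treatments of several probe sets, 3 variance or weight models, and each array left out in turn.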

Additional observations from a re-analysis of the deposited data

How the results depend on the processing

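The log2 differences of Gadd45a, Gadd45b and Gadd45g kept their direction and their side of the threshold in every setting that could test them. Gadd45a ran from 1.85 to 2.03 over 16 settings, Gadd45b from 1.07 to 1.31 over 16 and Gadd45g from 1.77 to 2.14 over 15, since the filter at the median level leaves Gadd45g out. Gadd45gip1 ran from -0.20 to -0.07 and never passed. The difference of the Gadd45a and Gadd45g rises turned to -0.051 after quantile normalization and ran from -0.283 to 0.26 with 1 array left out, so it has no order. In the 13 other settings fitted on all 19937 genes, 2880 to 3674 were higher and 3749 to 4660 lower. Testing all 34760 probe sets called 4820 of them higher and 5626 lower, and the 9968 genes above the median level gave 3070 and 3496. The replicate block gave 3388 higher and 4660 lower genes and changed the call of no member. It added a fall, Zfp36, among genes for proteins that bind Gadd45a mRNA (limma adjusted p = 0.045), and a second fall to the G2 to M list. By the correlation of deviations, the same-numbered array was the best match for replicates 2 and 3 but not for 1, so the pairing is not settled.

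Of 384 list counts over the settings, 25 moved by more than 1.5 times, all of them counts of 5 or fewer in the fit reported. The G2 to M list had 2 falls in 5 settings, among them without caffeine-minus array 2. The p38 and JNK cascade had 1 fall among genes above the median level and without caffeine-plus array 2. The other GADD and DDIT genes had 0 falls above the median level because that filter leaves out Ddit4l. Ddit4l stayed lower in the 15 settings that held it. Falls among genes for proteins that bind Gadd45a mRNA numbered 1 in 6 settings and 2 without caffeine-minus array 3. The L7Ae fold list had 1 rise in 7 settings and 1 fall in 2, and the mitoribosome list 9 rises with centred arrays. Genes near 0 changed sign. Ddit4 gave 0.036 after quantile normalization, 0.025 with centred arrays and -0.093 to 0.02 with 1 array left out. Ncl gave 0.02 and 0.006 under these scalings, Nfe2l2 -0.044 after quantile normalization and Oxa1l 0.002 with centred arrays. With 1 array left out Npm1 ran from -0.043 to 0.056 and Pcna from -0.003 to 0.089, and the mean of its probe sets gave -0.02 for Pcna. The cause was not tested.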
